A study of Mus musculus with 2 samples.

Results

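The effectors of the Hippo pathway and the genes they activate were examined in mouse back skin after stretch. The genes were grouped by role, with no threshold on their values but with earlier results of these data known, as the coactivators Yap1 and Wwtr1, the DNA-binding factors Tead1, Tead2, Tead3 and Tead4, and the target genes Ctgf, Cyr61, Ankrd1 and Amotl2. All 10 were present among the 24421 gene symbols of the count table, where Ctgf and Cyr61 are the older symbols of Ccn2 and Ccn1. RNA was sequenced from 1 library of whole-layer skin held at 33% strain for 5 days and from 1 library of skin harvested at the same time without strain. Both came from wild-type C57BL6/J mice, and the methods give females aged 8 weeks whose follicles were in telogen, the resting phase of the hair cycle. The methods also state that strain was raised daily to offset skin growth and that the area under the glued device was discarded. How many mice contributed to each library is not given in the sources used here.

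In the Hippo pathway, the kinases MST1 and MST2 activate LATS1 and LATS2, which phosphorylate YAP and TAZ (the product of Wwtr1) and hold them in the cytoplasm. When the kinases are inactive, or when cells are spread or pulled, YAP and TAZ enter the nucleus, bind TEAD factors and activate genes such as Ctgf and Cyr61. Because this switch acts on the proteins, transcript levels of Yap1 and Wwtr1 do not report it. In skin the pathway is known for its control of growth in the basal epidermis and of matrix production by fibroblasts.

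The control library held 14152379 counts and the stretched library 11648655, and markers of skin were abundant, with Krt14 at 38376 and 38380 counts and Col1a1 at 168121 and 277385. CPM is a gene's count scaled to the total of its library. With 1 library per condition no test across animals was possible, so every difference below is between 2 libraries and has no replicate check. Each fold change carries an exact 95% interval of its counts, which covers counting error only. Over the 14804 genes that reached 20 counts in all, the log2 fold change had a median of -0.12, called the median gene here, and values relative to it are also given. TMM scaling, which corrects for a few very abundant genes, would raise every log2 fold change by 0.10. In tissue RNA, fewer cells of a type and less RNA per cell cannot be told apart.

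The coactivator and TEAD transcripts stayed close to the median gene, while 3 of the 4 target genes were higher in stretched skin and Amotl2 was lower. A gene was called upregulated or downregulated when the product of its FPKM values exceeded 10 and their ratio was at least 2 or at most 0.5. These thresholds are those of the methods, whereas the 1 FPKM added here to each value before the product and the ratio is not stated there. All 10 genes passed this filter, and 1 of them, Ankrd1, was upregulated, against 2.61% of the 10910 genes that passed. None was downregulated, against 2.44%. The counting interval lay wholly above 0 for 3 of the 10 genes and wholly below 0 for 4. Among all genes with at least 20 counts these shares were 19.3% and 36.5%. With TMM scaling 4 of the 10 genes lay above 0 and 4 below, against 25.7% and 26.2% of all genes. Among the 9651 genes with at least the 372 counts of the shallowest member the shares were 20.7% and 44.1% with total-count scaling. With total-count scaling the number of clear intervals was thus near the background. With TMM scaling it was above the share over all genes, which include shallower ones. Ankrd1, Ctgf and Cyr61 were set apart by the size of their differences, at the 99.4th, 94.8th and 91.5th percentile of log2 fold change among genes with at least 20 counts.

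**Figure D1:**
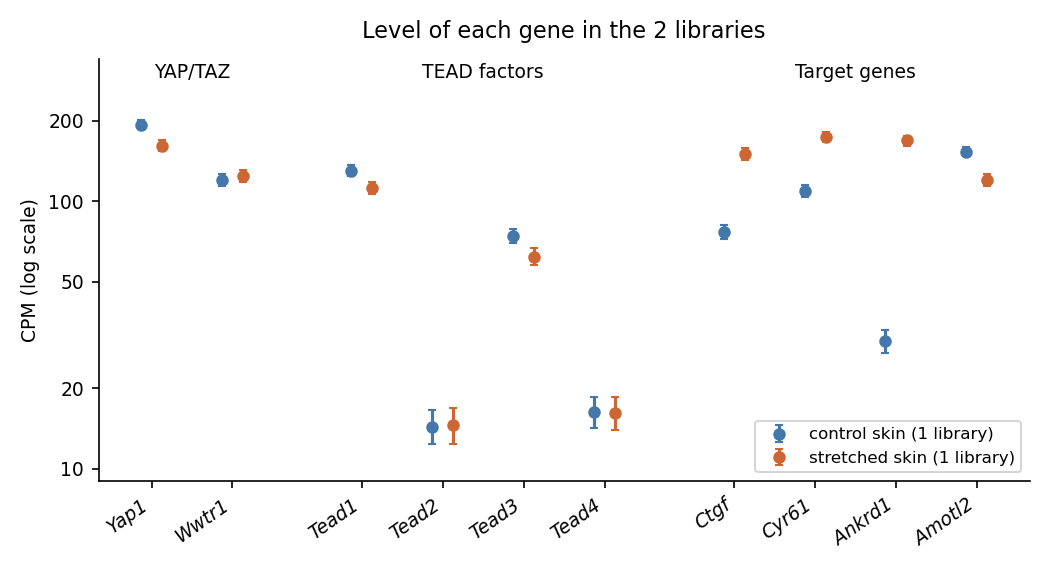
Level of each gene in CPM (log axis) in the control library (blue) and the stretched library (orange), with 95% Poisson intervals of the counts. Ankrd1 moved from 29.9 to 169 CPM, and the intervals of the libraries overlap for Wwtr1, Tead2 and Tead4.

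**Figure D2:**
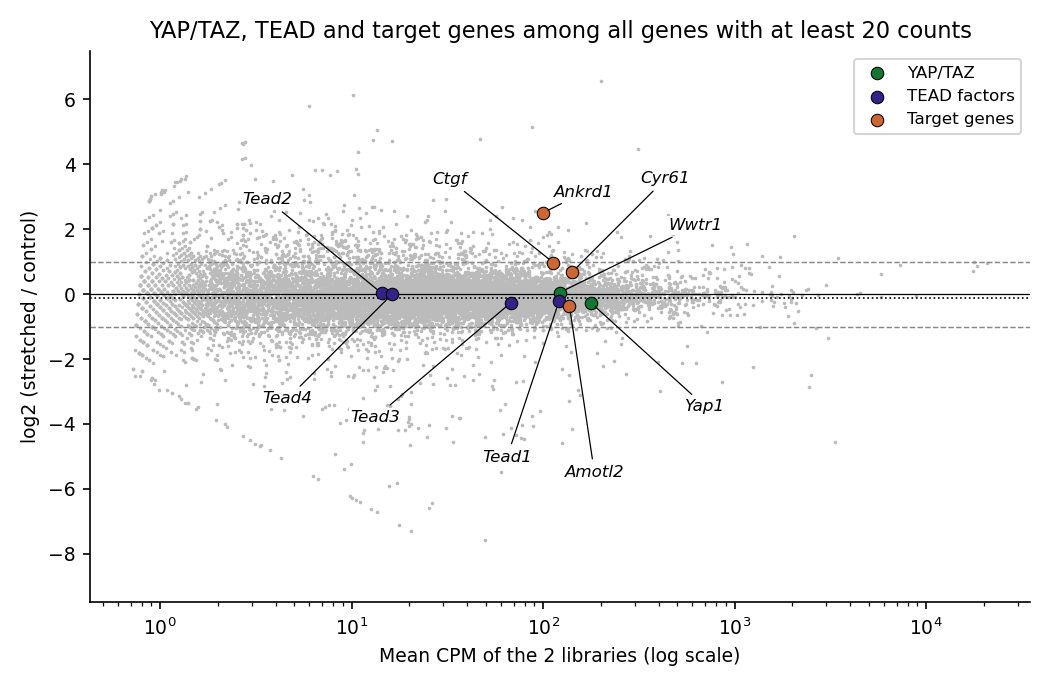
Log2 fold change against mean CPM (log axis) for the 14804 genes with at least 20 counts (grey), with the 10 genes marked by role. Dashed lines mark 2-fold, the dotted line the median gene at -0.12. The coactivators and TEAD factors lie near that line, and Ankrd1 is the only one of the 10 beyond 2-fold.

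Yap1, which encodes the coactivator YAP, had 2735 control and 1878 stretched counts, or 193 and 161 CPM. Its log2 fold change was -0.26 (interval -0.35 to -0.18), which is -0.14 relative to the median gene. Yap1 lies on the minus strand of chromosome 9 of mm10 from 7931999 to 8004596. Wwtr1, which encodes the related coactivator TAZ, had 1699 and 1447 counts, or 120 and 124 CPM. Its log2 fold change of 0.05 had an interval that included 0 with total-count scaling (-0.05 to 0.15) and lay wholly above 0 with each of the 4 other scalings (0.15 with TMM). It lies on the minus strand of chromosome 3 from 57455649 to 57575910. The count ratio of Wwtr1 to Yap1 within a library, which no scaling can change, went from 0.621 to 0.771, a log2 change of 0.31 (interval 0.18 to 0.44). The balance of the coactivator transcripts thus lay further towards Wwtr1 in the stretched library, beyond counting error.

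Among the TEAD factors, which carry YAP and TAZ to DNA, Tead1 and Tead3 were the most abundant and were lower in stretched skin by small amounts. Tead1 had 1834 and 1301 counts (130 and 112 CPM), with a log2 fold change of -0.21 (interval -0.32 to -0.11). Tead3 had 1047 and 721 counts (74.0 and 61.9 CPM), with a value of -0.26 (interval -0.40 to -0.12). Relative to the median gene these values were -0.09 and -0.14. Tead2, with 203 and 169 counts (14.3 and 14.5 CPM), and Tead4, with 230 and 188 counts (16.3 and 16.1 CPM), gave log2 fold changes of 0.02 (interval -0.29 to 0.32) and -0.01 (interval -0.30 to 0.27). Within the libraries, the ratios of the other 3 genes to Tead1 did not differ beyond counting error. The count ratio of Tead3 to Tead1 was 0.571 and 0.554 (log2 change -0.04, interval -0.22 to 0.13), and those of Tead2 and Tead4 to Tead1 had log2 changes of 0.23 (interval -0.09 to 0.55) and 0.20 (interval -0.10 to 0.51).

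Levels of different genes were compared per exon length, as FPKM, the CPM divided by the kilobases of exon. In control skin Cyr61 was highest at 54.0 FPKM, followed by Ctgf (26.7), Wwtr1 (25.1), Amotl2 (24.4) and Yap1 (20.9). Below these came Tead3 (11.0), Ankrd1 (10.4), Tead1 (9.55), Tead4 (4.52) and last Tead2. In stretched skin Cyr61 remained first at 86.0 FPKM, Ankrd1 moved to second at 58.4, and Ctgf followed at 52.5. Of the summed TEAD level, Tead3 held 39.2% and 36.9%, Tead1 34.0% and 33.0%, Tead4 16.1% and 18.0%, and Tead2 10.7% and 12.1%. In control skin the counting intervals of Ctgf and Wwtr1, of Wwtr1 and Amotl2, of Tead3 and Ankrd1 and of Ankrd1 and Tead1 overlapped, so these neighbours are not ranked. In stretched skin this held for Amotl2 (19.0) and Yap1 (17.4) and for Tead3 (9.22) and Tead1 (8.23). The choice of exon length moved 16 of the 20 levels by more than counting error. With the longest transcript as the length, Yap1 (36.6 FPKM) stood above Wwtr1 (25.6 FPKM) in control skin, whereas with the union of exons it stood below.

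**Figure D3:**
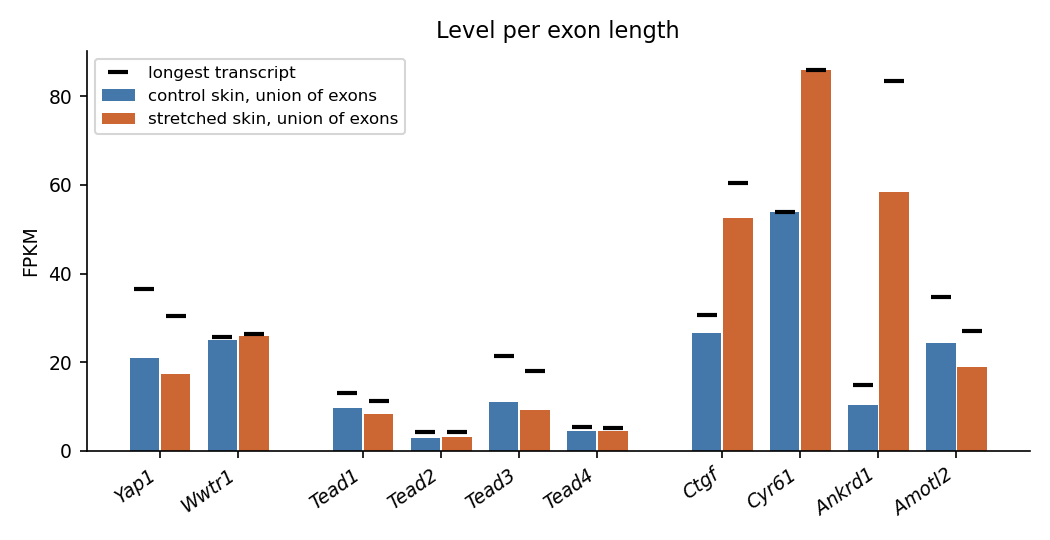
FPKM of each gene in control (blue) and stretched (orange) skin, with the union of exons as length, and the same level with the longest transcript as length (black marks). Cyr61 is highest in both libraries by the union of exons, and the marks of Yap1 and Tead3 show how far the length alone moves a level.

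Ankrd1 showed the largest difference of the 10 genes. It encodes CARP, an ankyrin repeat protein of the nucleus and the sarcomere that is a standard readout of YAP and TAZ in cultured cells and is also induced in striated muscle under load. Ankrd1, on the minus strand of chromosome 19 from 36111961 to 36120099, had 423 control and 1964 stretched counts, or 29.9 and 169 CPM. The stretched level was 5.64 times the control level, or 2.50 on the log2 scale (interval 2.34 to 2.65), which ranked 27th among the 285 upregulated genes. It had no exonic overlap with another gene and shared none of its 76-base stretches.

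Ctgf and Cyr61 encode secreted CCN proteins that act on the matrix and on integrins. Ctgf, on the plus strand of chromosome 10 from 24595442 to 24598683, had 1083 control and 1751 stretched counts, or 76.5 and 150 CPM. Its stretched level was 1.96 times the control level, or 0.97 on the log2 scale (interval 0.86 to 1.08). The interval includes 2-fold, and Ctgf was not called with scaling by total counts but was called with each of the 4 other scalings tried. Of its exonic bases, 23.2% overlap Gm15270 on the opposite strand, and the treatment of strand in the counting is not stated, so reads from these genes cannot be told apart. Cyr61, on the minus strand of chromosome 3 from 145646976 to 145649981, overlaps no other gene. It had 1542 and 2023 counts (109 and 174 CPM), which is 1.59 times the control level, or 0.67 on the log2 scale (interval 0.58 to 0.77). The count ratio of Ctgf to Cyr61 went from 0.702 to 0.866 (log2 change 0.30, interval 0.15 to 0.45), so these paralogs did not move by the same amount.

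Amotl2 went the other way. It encodes an angiomotin, a junction protein that binds YAP and is itself activated by it. Amotl2, on the plus strand of chromosome 9 from 102716672 to 102733418, had 2171 control and 1395 stretched counts, or 153 and 120 CPM. Stretched skin had 0.781 times the control level, with a log2 fold change of -0.36 (interval -0.46 to -0.26), or -0.24 relative to the median gene. The count ratio of Amotl2 to Yap1 was 0.794 and 0.743, and its log2 change of -0.10 had an interval that included 0 (-0.23 to 0.03). The ratio of Ctgf to Amotl2 was higher in the stretched library by 1.33 on the log2 scale (interval 1.18 to 1.48) and that of Cyr61 to Amotl2 by 1.03 (interval 0.89 to 1.17). The target genes were therefore not a uniform group. Their median log2 fold change was 0.82, with a range from -0.36 to 2.50, beside -0.11 for the coactivators and -0.11 for the TEAD factors.

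The sequences before the start sites of the target genes are shown because genes that differ in direction all hold the core of the TEAD recognition motif. Of the 10 genes, 7 had entries in the RefSeq promoter table of GRCm38.p6, and Tead1, Tead4 and Ctgf had none. The motif CATTCC, searched on both strands of the 250 bases before the RefSeq start site (GGAATG is its other strand), was found in at least 1 entry of 6 of the 7 genes, the exception being Tead2. It was found in 12.6% of all 32851 promoters of this length and for 14.4% of the 27025 genes in the table. The AP-1 motif TGANTCA, present in 6.75% of promoters, and the CArG box bound by SRF, present in 1.47%, were not found in any of the 10 promoters of the 7 genes. The RefSeq start lies 255 bases inside the GENCODE M21 gene for Ankrd1 and 1132 bases inside it for Amotl2, so these windows fall within the gene spans given above, and the RefSeq start of Cyr61 lies 4 bases upstream of its GENCODE gene. The sequences below are written in the direction of transcription with matches in capitals.
Ankrd1 (chr19:36119845-36120094, minus strand): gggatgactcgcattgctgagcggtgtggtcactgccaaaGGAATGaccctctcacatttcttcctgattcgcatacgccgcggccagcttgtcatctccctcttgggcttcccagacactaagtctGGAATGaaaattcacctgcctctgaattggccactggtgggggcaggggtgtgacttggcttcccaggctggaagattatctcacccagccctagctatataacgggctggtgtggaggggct
Cyr61 (chr3:145649986-145650235, minus strand): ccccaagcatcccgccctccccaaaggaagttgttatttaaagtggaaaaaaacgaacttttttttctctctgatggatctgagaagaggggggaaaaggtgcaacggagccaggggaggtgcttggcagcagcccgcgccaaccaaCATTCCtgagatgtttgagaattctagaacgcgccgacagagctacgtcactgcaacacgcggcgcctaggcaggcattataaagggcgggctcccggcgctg
Amotl2 (chr9:102717554-102717803, plus strand): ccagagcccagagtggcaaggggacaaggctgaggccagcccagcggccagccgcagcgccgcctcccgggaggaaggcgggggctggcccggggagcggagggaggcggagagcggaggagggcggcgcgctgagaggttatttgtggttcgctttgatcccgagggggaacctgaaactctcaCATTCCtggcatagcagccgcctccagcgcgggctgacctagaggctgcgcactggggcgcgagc

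Ankrd1 held 2 matches, from 210 to 205 and from 123 to 118 bases before the start, and 1.02% of all promoters held 2 or more. Of the 3 Tead3 entries, 1 also held 2 matches (123 to 118 and 114 to 109), 1 held a single match (182 to 177) and 1 held none, and Tead3 was lower in stretched skin. Cyr61 held 1 match from 103 to 98 bases before the start, and Amotl2 held 1 from 65 to 60. Amotl2, the target gene that was lower in stretched skin, thus had a match nearer to its start than Ankrd1 or Cyr61. The sequence upstream of Amotl2 held 70.4% G and C, against 55.6% for Ankrd1 and 54.8% for Cyr61. Yap1 held a match at 141 to 136 bases before the start. The Wwtr1 entries, whose starts lie 34 bases apart, held the same match, at 136 to 131 and at 170 to 165 bases before them. A match is a run of letters, and binding was not measured.

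Because Ankrd1 is also a gene of striated muscle, and whole-layer skin of the mouse includes the panniculus carnosus muscle, its value is given beside those of muscle genes. Its relatives Ankrd2 and Ankrd23 of the muscle ankyrin repeat family were not higher in stretched skin with any of the 5 scalings. Ankrd2 went from 2369 to 958 counts (log2 fold change -1.03, interval -1.14 to -0.92) and was called downregulated with total-count scaling but with none of the 4 others. Ankrd23 had 2824 and 2090 counts (-0.15, interval -0.24 to -0.07), with 78.2% of its exonic bases inside Gm42417. Csrp3, a muscle LIM protein of the Z-disc, had 4531 and 4637 counts (0.31, interval 0.25 to 0.37). The ratio of Ankrd1 to Ankrd2 went from 0.179 to 2.05, a log2 change of 3.52 (interval 3.33 to 3.71), and that of Ankrd1 to Csrp3 changed by 2.18 (interval 2.02 to 2.35). Against the developmental marker Myh3 the ratio of Ankrd1 went the other way, from 7.17 to 0.424 (log2 change -4.08, interval -4.51 to -3.68). Of the 10 skeletal muscle markers, 4 had intervals above 0 and 6 below, with a median of -0.27, or 5 and 5 with TMM scaling. These shares were 19.3% and 36.5% over all genes, or 25.7% and 26.2% with TMM scaling. The myosin genes Myh2 (1.46) and Myh1 (1.10) and the myoglobin gene Mb (1.09) were upregulated (2.61% over all genes). The fast myosin gene Myh4 (-4.57) and the creatine kinase gene Ckm (-1.05) were downregulated (2.44% over all genes), although Ckm was not with any of the 4 other scalings. The summed level of the list was 27650 CPM in control and 22202 CPM in stretched skin, and without Myh4 it was 21218 and 21931 CPM. Acta1, the skeletal muscle actin, was at -0.07 (interval -0.08 to -0.06). All 7 developmental muscle markers were higher, from 61.4 to 1297 CPM in sum. The 6 that passed the FPKM product filter were upregulated, or 5 without the added 1 FPKM, when Tnnt2 is lost (2.61% over all genes). Myh3, the embryonic myosin heavy chain, went from 59 to 4637 counts (6.58, interval 6.21 to 6.97). The fetal acetylcholine receptor gene Chrng, which did not pass that filter, was at 6.13. Myl4 was at 5.16, Myh8 at 4.47 and Tnnt2 at 3.45, and the myogenic factors Myog and Myod1 were at 1.64 and 1.24. No marker of either list was at or under 3 counts in both libraries. The part of muscle in the value of Ankrd1 was not tested.

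**Figure D4:**
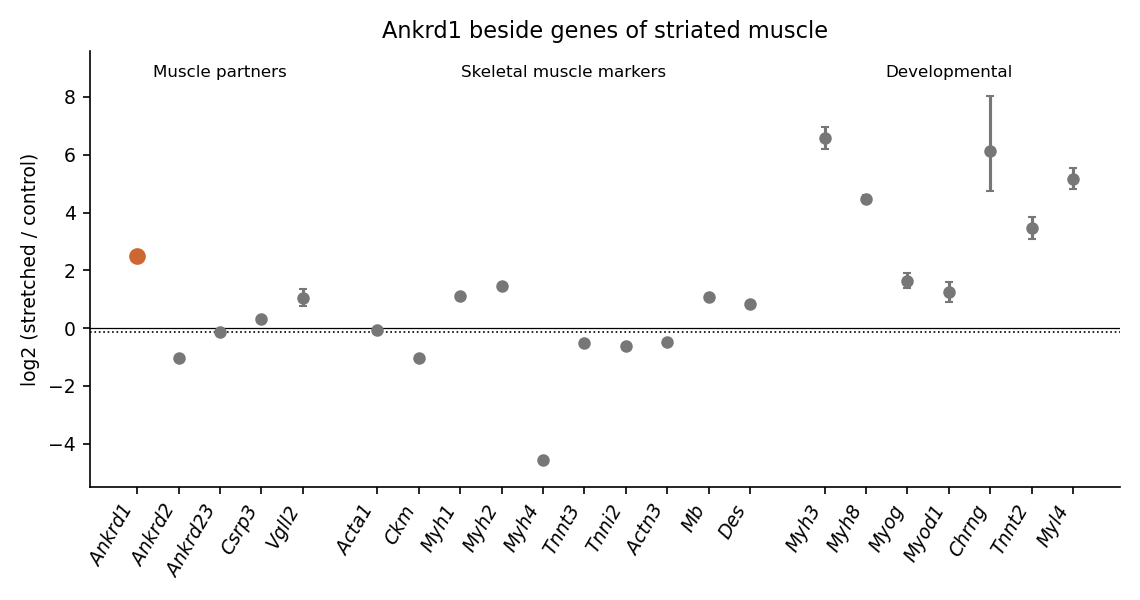
Log2 fold change with 95% counting interval for Ankrd1 (orange), 4 other muscle genes, 10 skeletal muscle markers and 7 developmental muscle markers, with the median gene at -0.12 dotted. The 4 genes, plotted as muscle partners, are Ankrd2, Ankrd23, Csrp3 and the TEAD cofactor gene Vgll2. Ankrd1 at 2.50 lies above these 4 genes and all adult markers and below 5 of the 7 developmental markers.

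Vgll2, also in that plot, belongs to the vestigial-like cofactors that bind TEAD factors in place of YAP and is a gene of skeletal muscle. It had 163 control and 278 stretched counts (log2 fold change 1.05, interval 0.77 to 1.34). It was not called with 1 FPKM added to each level and was called as upregulated without it, as it was with each of the 4 other scalings. Vgll4, a cofactor that competes with YAP for TEAD, had 499 and 241 counts (-0.77, interval wholly below 0), and Vgll3 had 423 and 364 (0.06, interval -0.14 to 0.27). Vgll1 had 0 counts in both libraries. These cofactors thus spread more widely than the TEAD factors they bind.

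The values of the core kinases of the pathway were small and depended on the scaling. Of the 7 kinases and adaptors, 6 had intervals wholly below 0 and 1 above, but only Stk4, Mob1a and Mob1b stayed below 0 with TMM scaling. None of the 6 that passed the FPKM product filter was called, and the median log2 fold change of the list was -0.30, or -0.18 relative to the median gene. Stk3 and Stk4, which encode MST2 and MST1, gave -0.30 and -0.35. Lats1 and Lats2 gave -0.18 and -0.18, and 42.4% of the exonic bases of Lats2 lie inside Gm49361. Mob1b, an activator of the LATS kinases that did not pass the filter, was lowest at -0.75 (271 and 133 counts, interval -1.06 to -0.44), and Mob1a was at -0.42. Sav1, the scaffold of the MST kinases, was at 0.18 (interval 0.03 to 0.33), with 25.4% of its exonic bases overlapping Atl1 on the opposite strand. Among the 17 upstream regulators the interval lay below 0 for 11 and above 0 for 2, or for 8 and 4 with TMM scaling. The median was -0.15, and none of the 15 that passed the filter was called. The extremes were Ptpn14 (-0.75), a phosphatase that holds YAP in the cytoplasm, and Wwc1 (-0.68), which encodes KIBRA. At the other end were the kinase gene Taok3 (0.54), which did not pass the filter, and the protocadherin gene Dchs1 (0.46). Over all genes with at least 20 counts, 36.5% had an interval below 0 and 19.3% above, or 26.2% and 25.7% with TMM scaling. Among the 9651 genes with at least 372 counts, a depth that all these genes reach, 44.1% were below and 20.7% above with total-count scaling.

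**Figure D5:**
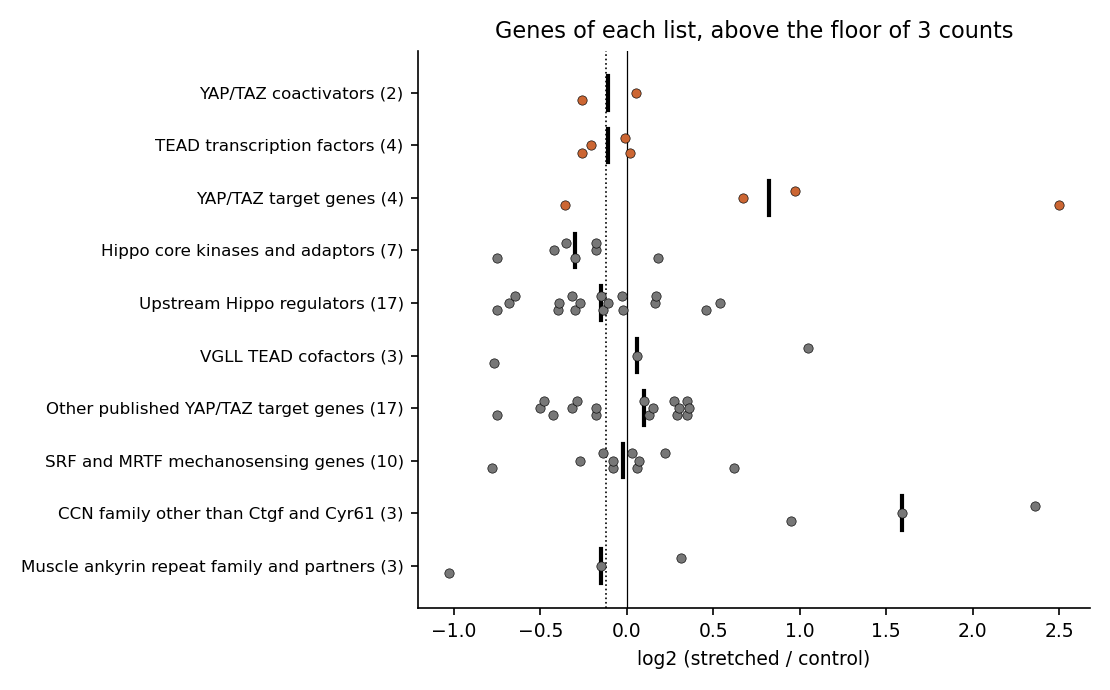
Log2 fold change of each gene above the floor of 3 counts in the lists of the pathway (points), with the number of genes in brackets, the median of each list (bars) and the median gene at -0.12 (dotted line). The other published target genes lie between -0.75 and 0.36, below Ctgf, Cyr61 and Ankrd1.

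Of 18 other genes taken from a published YAP and TAZ target signature, 17 exceeded 3 counts in at least 1 library, and Foxf2 had 1 count in each. None of the 17 had a log2 fold change as high as those of Ctgf, Cyr61 and Ankrd1. Their median log2 fold change was 0.10, or 0.22 relative to the median gene, and none was called. The interval lay above 0 for 7 of the 17 (41.2%, against 19.3% of all genes with at least 20 counts) and below 0 for 6 (35.3%, against 36.5%). Among the 9651 genes with at least 372 counts the shares were 20.7% and 44.1%. The highest were Myof, a membrane repair protein (1449 and 1531 counts, 0.36), and the kinase gene Nuak2 (0.35). The lowest were Ptpn14 (-0.75) and Crim1 (-0.50). Axl and Igfbp3, which have more counts, were at 0.27 (interval 0.20 to 0.34) and 0.30 (interval 0.25 to 0.36). Lats2 and Ptpn14, feedback targets that restrain YAP, are also in the lists of kinases and upstream regulators.

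Of the 4 other CCN genes, the 3 that exceeded 3 counts had intervals above 0, and 2 were upregulated (19.3% and 2.61% over all genes, as above). Nov, the third member of the family, was upregulated from 321 to 1354 counts (log2 fold change 2.36, interval 2.18 to 2.54), and Wisp2 from 263 to 652 (1.59, interval 1.38 to 1.80). Wisp1, first described as induced by Wnt1, had 238 and 378 counts (0.95, interval 0.71 to 1.19) and was not called, and Wisp3 had 1 and 2 counts. Per exon length the 6 genes summed to 101 FPKM in control and 214 FPKM in stretched skin. Cyr61 held 53.2% of this sum in control and 40.2% in stretched skin, Ctgf held 26.4% and 24.5%, and Nov held 7.80% and 18.9%. The family level per length was thus carried less by Cyr61 and more by Nov in stretched skin.

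SRF and MRTF form a second mechanosensing route, driven by actin, that shares targets with YAP. Over 10 genes of this route, the factors included, the median log2 fold change was -0.02, with 2 intervals above 0 and 1 below (19.3% and 36.5% over all genes) and none called. With TMM scaling the median was 0.08, with 5 intervals above 0 and 1 below (25.7% and 26.2% over all genes). Without the 4 factors Srf, Mkl1, Mkl2 and Myocd the median of the other 6 was 0.04. Srf itself was at 0.07 (interval -0.04 to 0.18). The focal adhesion gene Zyx was at 0.22, Actg2 at 0.62 and Tagln at -0.27, and 67.9% of the exonic bases of Tagln overlap other genes on the opposite strand. Myocd, the lowest at -0.78, rested on 23 and 11 counts, and its interval included 0 (-1.97 to 0.31).

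Markers of the other cell types of whole-layer skin also differed. The counts that follow are to be read against 19.3% of all genes with an interval above 0 (25.7% with TMM scaling), 36.5% with one below and 2.61% upregulated. Among the 9651 genes with at least 372 counts, 20.7% had an interval above 0 and 44.1% one below. Markers with many counts clear 0 at small differences, such as Dcn (interval 0.03 to 0.08). All 7 fibroblast markers had intervals above 0, and their sum went from 41701 to 78040 CPM, but the size varied. Col1a1, at 11879 and 23813 CPM, and Col3a1, at 14111 and 27438 CPM, hold most of this sum. Col1a1 was upregulated, Col3a1 was at 0.96 and called only with the 4 other scalings, and Pdgfra and Dcn were at 0.18 and 0.06. The ratio of Ctgf to Col1a1 differed little (log2 change -0.03, interval -0.14 to 0.08), and that of Cyr61 to Col1a1 changed by -0.33 (interval -0.43 to -0.23). Col1a1 was the highest of the 7 markers. The values of Ctgf (0.97) and Cyr61 (0.67) were above those of Pdgfra and Dcn, whereas Ctgf was close to Col3a1 and Cyr61 below it. Of the 6 smooth muscle and pericyte markers 5 had intervals above 0 (1600 and 2626 CPM in sum). Most of that sum is Des, also a skeletal muscle marker, without which it was 515 and 675 CPM. Values ran from Pdgfrb at 0.93 and Des at 0.85 to Acta2 at 0.14 and Rgs5 at 0.08. Of the 6 endothelial markers 3 did (207 and 268 CPM), with Tie1 at 0.74, Cdh5 at 0.57, Tek at -0.03 and Kdr at -0.37. The ratio of Ctgf to Acta2 changed by 0.83 (interval 0.71 to 0.96). The 7 keratinocyte markers summed to 17489 and 17160 CPM, with Krt14 at 0.28, Krt1 at 0.15, Trp63 at -0.49 and Dsp, the desmosome gene desmoplakin, at -0.67. All 6 macrophage markers were higher (639 and 1496 CPM), and Adgre1 (1.56), Cd68 (1.47), Lyz2 (1.37) and Csf1r (1.15) were upregulated, while Mrc1 (0.94), which 3 of the 4 other scalings called, and Cd163 (0.80) were not. All 5 adipocyte markers were lower (1189 and 753 CPM), from Fabp4 at -0.56 and Adipoq at -0.77 to Lep at -0.82 and Plin1 at -0.84. No marker of these lists was at or under 3 counts in both libraries. The part of these cell types in the values of the target genes was not tested.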

How the data were processed

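TruSeq libraries were read from 1 end over 76 bases. Per the methods, TopHat2 placed reads on mm10 once the FASTX-Toolkit had removed poor ones. The authors deposited raw counts per gene symbol, and the counting program, its annotation and its handling of strand and shared reads are not given in the sources used here. From these counts CPM used the total of each library. FPKM used the union of exons in GENCODE M21, which gave lengths to 98.4% of genes, and positions are those of that annotation, counted from 1. Counts of 3 or fewer (0.212 and 0.258 CPM) were set to 3. Fold changes are ratios of CPM without a pseudocount, with exact Clopper-Pearson intervals. Ratios between genes of a library carry exact conditional intervals, or large-count intervals where a gene exceeds 30000 counts (Acta1 and Col1a1), and their gene pairs were chosen after values were seen. Overlap and shared stretches were counted in GENCODE M21. No test across replicates was possible. The genes and lists were chosen with earlier results of these data known. Besides the 10 genes, each list contributes its 2 highest and 2 lowest genes with at least 20 counts, any called gene and the defining markers Acta1, Myh3, Col1a1 and Krt14, and a few others named for their role, namely Stk3, Stk4, Lats2, Axl, Igfbp3 and Srf, were chosen after their values were seen. List intervals and calls under each scaling, and lists without Des, Myh4 or the SRF factors, were added after seeing the data. Alternatives were 4 scalings (TMM of edgeR 4.0.16, median of ratios of DESeq2 1.42.0, upper quartile, library totals that leave out the 50 most counted genes), filters, pseudocounts, fold thresholds and exon lengths. The steps were tested on simulated data. Python 3.11.15 with scipy 1.17.1 and R 4.3.3 were used.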

Additional observations from a re-analysis of the deposited data

How the results depend on the processing

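Every result rests on 1 library per condition, so no library could be left out, and the counting intervals leave out the spread between animals. No paired analysis was possible because each condition has 1 library. The number of the 10 genes called upregulated was 1, and it became 2 with each of the 4 scalings, which added Ctgf, and 3 with a fold threshold of 1.5, which added Ctgf and Cyr61. It did not change in the other 5 alternatives, and the number called downregulated stayed at 0 in all 10. The interval of Wwtr1 moved wholly above 0 with each of the 4 scalings, which made 4 genes with an interval above 0 in place of 3, and the 4 genes below 0 remained Yap1, Tead1, Tead3 and Amotl2. The scalings shift every log2 value by 0.06 to 0.11, and medians near 0 moved with them. The coactivators went from -0.11 to 0.00 with the TMM, median-of-ratios and upper-quartile scalings alike, changing sign with the median of ratios. The target genes went from 0.82 to 0.93 with the same 3 scalings and to 0.89 with the fourth. The upstream regulators were at -0.04 and the muscle ankyrin repeat genes at -0.05, -0.04 and -0.05 with the same 3 scalings. The SRF and MRTF genes turned positive, at 0.08, 0.09, 0.08 and, with totals without the 50 genes, 0.04. Over all genes, 285 were called upregulated and 266 downregulated. These numbers were 330 and 215 with TMM, 336 and 214 with the median of ratios and 329 and 215 with the upper quartile. With totals without the 50 genes they were 341 and 262. They were 454 and 442 with CPM in place of FPKM, 137 and 130 with the product above 100, and 680 and 807 with a fold threshold of 1.5. Adding 1 CPM lowered the value of Ankrd1 to 2.46. Levels per length depend on the chosen length, and 16 of 20 moved by more than their counting error with the longest transcript.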
